A study of Homo sapiens with 9 samples.

Results

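The core genes of the circadian clock were examined in a SLAM-Seq experiment in MCF10A cells, an established line of non-transformed human mammary epithelium. The 10 members were taken by name from the deposited table, out of 25797 genes with a symbol. They are the activators CLOCK and BMAL1 (ARNTL in older annotations), the repressors PER1, PER2, PER3, CRY1 and CRY2, the nuclear receptors NR1D1 and NR1D2, and the output factor DBP. The rule uses names and no measured value, although the list was drawn up with earlier results of these data known. All cells lacked endogenous JUN and carried JUN fused to an auxin-inducible degron (JUN-AID) together with the plant F-box protein TIR1, so that indole-3-acetic acid (IAA) triggers degradation of the JUN protein. The knockout came from clones grown from single cells. The degron fusion and TIR1 were introduced by infection, and whether the infected cells were cloned again was not given. The no 4sU control received no 4-thiouridine, and the labels do not say whether it received the solvent. The DMSO group was given the solvent and then labelled with 100 µM 4sU for 1 h. In the IAA group the same pulse was preceded by 1 h with 100 µM IAA.

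The mammalian clock is a transcriptional feedback loop. CLOCK and BMAL1 form a heterodimer that binds E-box sequences and activates the PER and CRY genes, whose proteins return to the nucleus and inhibit the heterodimer. In a second loop the heme receptors NR1D1 and NR1D2 (REV-ERB alpha and beta) repress BMAL1 through ROR elements. DBP, a PAR bZIP factor, carries the rhythm to output genes through D-boxes. PER1 is also known as an immediate early gene that responds to serum, glucocorticoid and cAMP. In an unsynchronised culture, cells at different phases are averaged. The labels name no synchronisation and no time of day, and the growth medium held hydrocortisone, cholera toxin, insulin, EGF and horse serum.

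4sU is incorporated into RNA made during the pulse. After alkylation it is read as C in place of T, so the T>C conversion rate, which is the share of sequenced T positions that appear as C, follows the newly made share of an mRNA, while the reads scaled to library size (CPM) follow its total amount. The library totals by which the CPM were scaled, recovered from the CPM steps, were 18997637 to 24014195 reads. The median rate over 8859 genes was 0.0544% to 0.0564% without 4sU, 0.184% to 0.248% with DMSO and 4sU, and 0.229% after IAA. The 3 IAA columns held the same numbers in all 56868 rows and were counted as 1 library, so that 7 libraries remained. The study describes its replicates as biological, while the labels number them without naming separate cultures, and the p-values measure the spread between these libraries. Of the markers listed as basal epithelial, KRT5 (519 to 709 CPM) was abundant and KRT14 was low (3.63 to 10.6 CPM). KRT17 was at 156 to 349 CPM, ITGB4 at 112 to 154, CDH1 at 73.2 to 196 and TP63 at 30.5 to 39.4. Among markers of other tissues, PTPRC (blood cells) had no reads and PECAM1 (endothelium) was at 0.179 to 1.08 CPM. COL1A1 (fibroblasts) was at 3.21 to 9.82 CPM, close to the range of KRT14. JUN mRNA was at 48.1, 57.6 and 45.0 CPM without 4sU, at 30.2, 20.3 and 25.6 CPM with DMSO and 4sU, and at 62.9 CPM in the IAA library. The degron acts on the protein, so these values do not check the depletion.

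The promoters are printed for the 3 members in which a searched E-box or D-box was found. Those of CRY2, which held only a ROR half-site, are not printed. The 250 bases before each RefSeq start site (GRCh38.p14, used for sequence only) were searched on both strands for the E-box CACGTG, the D-box TTATGTAA, the ROR half-site AGGTCA and the cAMP element TGACGTCA. None of the matches overlapped another. Of all 35116 promoters, 6.34% held the E-box, 0.834% the D-box, 12.1% the ROR half-site and 1.65% the cAMP element. All 10 members had a promoter, 15 in all, and 5 promoters of 4 members held a match. PER1 had 1 E-box, at -173 from the start site, and 1 ROR half-site, at -144. NR1D2 had 2 E-boxes and 1 D-box before its second start site. PER3 had a D-box at -177. CRY2 had a ROR half-site at -62 of one start site and at -64 of the other. Matched letters are in capitals, and each sequence runs 5′ to 3′ on the strand of the gene.
PER1, chr17:8152523-8152597, minus strand: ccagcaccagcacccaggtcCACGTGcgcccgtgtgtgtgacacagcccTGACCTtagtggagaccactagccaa
NR1D2, chr3:23945907-23946041, plus strand: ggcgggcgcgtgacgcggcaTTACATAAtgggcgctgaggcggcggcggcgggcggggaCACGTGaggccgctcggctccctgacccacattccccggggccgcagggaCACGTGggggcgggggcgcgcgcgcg
PER3, chr1:7784094-7784141, plus strand: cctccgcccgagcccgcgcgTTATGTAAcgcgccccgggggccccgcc
A match describes these letters in this window and is not evidence of binding.

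The clock mRNAs spanned a wide range, from CLOCK, PER1, BMAL1 and CRY1 at more than 10 CPM down to PER3, NR1D1 and DBP, which had at most 12 reads in any library. CLOCK, the histone acetyltransferase of the heterodimer, was the most abundant in CPM. It stood at 47.5, 52.5 and 55.4 CPM in the no 4sU control, at 49.4, 64.7 and 50.5 CPM with DMSO and 4sU, and at 50.2 CPM in the IAA library. Its partner BMAL1 was at 21.9, 22.3 and 19.9 CPM without 4sU, at 14.0, 19.4 and 16.3 CPM with DMSO and 4sU, and at 19.4 CPM with IAA. The libraries with DMSO and 4sU all lay below those without 4sU for BMAL1, whereas for CLOCK the groups overlapped.

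Among the repressors, PER1 was at 13.5, 17.4 and 20.6 CPM without 4sU, at 20.4, 12.8 and 20.7 CPM with DMSO and 4sU, and at 18.6 CPM with IAA. CRY1, a flavoprotein that binds the CLOCK and BMAL1 dimer, was at 11.1, 12.6 and 14.3 CPM, then 12.9, 13.5 and 15.9 CPM, and 14.7 CPM in the same order. For both genes the groups overlapped. PER2 was at 1.78, 2.73 and 3.79 CPM without 4sU, at 2.54, 2.29 and 3.29 CPM with DMSO and 4sU, and at 1.84 CPM with IAA. CRY2 was at 1.83, 1.74 and 2.53 CPM, then 1.83, 1.08 and 1.19 CPM, and 2.49 CPM. PER1 thus exceeded PER2, and CRY1 exceeded CRY2, in each of the 7 libraries.

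NR1D2 was at 4.60, 4.29 and 2.79 CPM without 4sU, at 3.48, 4.62 and 3.29 CPM with DMSO and 4sU, and at 2.89 CPM with IAA. These are the values of its longer interval, since its other interval holds nearly the same reads, and the fits used both. NR1D1 had 12, 7 and 5 reads without 4sU, 3, 4 and 0 reads with DMSO and 4sU, and 3 reads with IAA. Its gene overlaps THRA on the opposite strand, and whether reads were counted by strand is not given in the sources used here. PER3 had 2, 1 and 5 reads, then 2, 6 and 1 reads, and 3 reads. DBP had 0, 1 and 4 reads, then 3, 0 and 2 reads, and 1 read. A count of 0 allows up to 3 reads, or 0.125 to 0.158 CPM depending on the library, so these 3 mRNAs were at or near the limit of detection. They fell under the minimum of the main fits. Without a minimum, all 10 members were tested in total mRNA, DMSO and 4sU against no 4sU, and 0 were called.

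**Figure D1:**
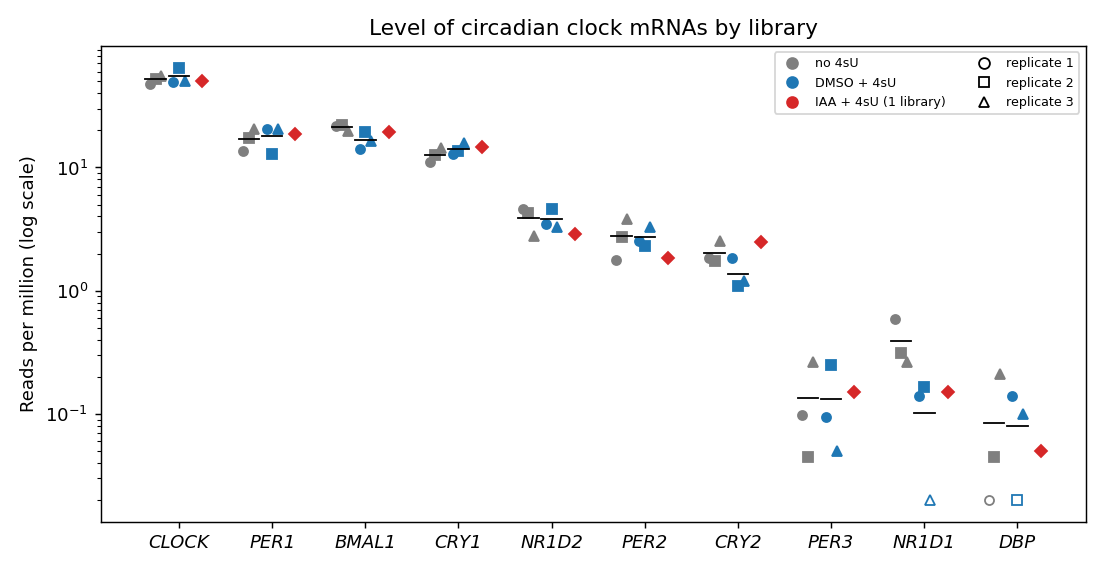
Level of each clock mRNA in CPM (log axis) in the 7 libraries, with a horizontal bar at the mean of each group of 3 and open markers at 0.02 for libraries with 0 reads. CLOCK lies highest at 47.5 to 64.7 CPM, and NR1D1, PER3 and DBP lie at or below 0.593 CPM.

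Tag libraries read 1 end of each mRNA, but the counting intervals differ in length from 280 bases (DBP) to 7517 bases (CLOCK). Divided by the interval length in kilobases, the CPM with DMSO and 4sU was 32.3 for BMAL1, 29.9 for PER1, 22.2 for CRY1 and 7.30 for CLOCK. It was 1.16 for PER2, 1.12 for NR1D2, 0.587 for CRY2, 0.339 for NR1D1, 0.286 for DBP and 0.054 for PER3. CLOCK led in CPM and stood below BMAL1, PER1 and CRY1 per kilobase, while the last 6 members stayed below the first 4 in both. With 1 end read per mRNA, reads need not grow with interval length. The values per kilobase therefore describe the intervals and do not rank the amounts of mRNA. In CPM with DMSO and 4sU, the neighbours BMAL1 (16.6 ± 2.67, SD, n = 3), PER1 (18.0 ± 4.46) and CRY1 (14.1 ± 1.59) overlapped. NR1D2 (3.79 ± 0.723) and PER2 (2.70 ± 0.519) met at 3.29 CPM, whereas CLOCK (54.9 ± 8.5) did not overlap the next member.

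In GRCh37 the genes lie on chromosomes 17 (PER1, 8043790 to 8059824, and NR1D1, 38249046 to 38256842), 2 (PER2, 239152685 to 239198743), 1 (PER3, 7844351 to 7905237), 12 (CRY1, 107385142 to 107487327), 11 (CRY2, 45868669 to 45904799, and BMAL1, 13298199 to 13408813), 3 (NR1D2, 23986777 to 24022108), 4 (CLOCK, 56294070 to 56413076) and 19 (DBP, 49133287 to 49140636). The table gives interval lengths without positions. For 7 members an interval matched an annotated 3′ UTR block in length to within 3 bases, such as the block at 8043790 to 8044388 for PER1 and at 56294070 to 56301584 for CLOCK.

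The comparison of DMSO and 4sU with the no 4sU control shows for which clock mRNAs labelling during the pulse could be detected. An mRNA without a call may still have been made in that hour. The rate could be tested for 5 members with a mean of at least 100 reads, and 4 of them rose, PER1, BMAL1, CRY1 and CLOCK (limma on the log2 rate with a pseudocount of 0.0005, threshold 0.05 on the Benjamini-Hochberg adjusted p). Of all 8859 genes tested, 53.7% rose by the same rule, so the count of 4 of 5 is not far from the background. The median log2 difference was 1.46 over the 5 members and 1.21 over all genes. In 4 of 5 members every library with 4sU lay above every library without it, against 66.3% of all genes.

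PER1 had the clearest labelling of the members. Its rate was 0.0169%, 0.0535% and 0.0627% without 4sU and 1.05%, 0.848% and 0.578% with DMSO and 4sU. Every labelled library was far above the unlabelled ones. The mean rose from 0.0444% ± 0.0243 to 0.824% ± 0.235 (SD, n = 3 each), a ratio of 18.6. The log2 difference was 3.21 (standard error 0.357, 95% interval 2.35 to 4.07, limma adjusted p = 0.00148). The excess over the unlabelled rate, 0.779 percentage points, stood at percentile 92.3 of all genes tested, whose median excess was 0.154 points. PER1 passed in each of the 3 fits that left out 1 replicate number, with log2 differences from 2.80 to 3.58.

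The rate of BMAL1 was 0.147%, 0.0651% and 0.119% without 4sU and 0.638%, 0.389% and 0.240% with it. The groups did not overlap, and the log2 difference was 1.51 (standard error 0.415, limma adjusted p = 0.0239). CLOCK was at 0.130%, 0.0871% and 0.0465%, then at 0.285%, 0.208% and 0.204%. Its log2 difference was 1.07 (standard error 0.319, limma adjusted p = 0.0307), the smallest of the 4 called members. CRY1 was at 0.0171%, 0.0278% and 0.0288%, then at 0.149%, 0.0836% and 0.268%, a log2 difference of 1.46 (standard error 0.357, limma adjusted p = 0.0164). The excess of CRY1 and CLOCK lay at percentiles 47.0 and 47.7 of all genes, near the middle, and that of BMAL1 at 74.5. The calls of these 3 genes were not stable when 1 replicate number was left out. With 2 libraries a group, BMAL1 (adjusted p from 0.0508 to 0.126) and CLOCK (0.0631 to 0.129) did not pass in any of the 3 fits, and CRY1 passed only without replicate 2 (adjusted p = 0.0333, otherwise 0.0769 and 0.113).

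NR1D2 had a rate of 0.0535%, 0% and 0.176% without 4sU and of 0.263%, 1.36% and 0% with DMSO and 4sU. Its groups overlapped, and the log2 difference of 1.41 had an interval from -1.54 to 4.36 (limma adjusted p = 0.339). Replicate 2 decided its sign, since without it the difference was -0.29. NR1D2 reached the minimum only because 2 overlapping intervals were summed. It had a mean of 82.2 reads in 1 interval. The 5 members under the minimum were not tested. Among them PER2 was at 0%, 0.132% and 0%, then at 0.222%, 0.831% and 0.0630%, and CRY2 at 0.122%, 0.206% and 0%, then at 0.423%, 0.161% and 0.171%. With the minimum lowered to 20 reads, a setting added once the data had been seen, the log2 difference was 1.96 for PER2 (limma adjusted p = 0.126) and 1.11 for CRY2 (adjusted p = 0.235). NR1D1 showed conversions in 2 libraries with DMSO and 4sU (1.75% and 2.60%, from 3 and 4 reads), and PER3 and DBP showed none in any library. The number of T positions behind a rate was not used here, and no counting error can be given for one rate.

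**Figure D2:**
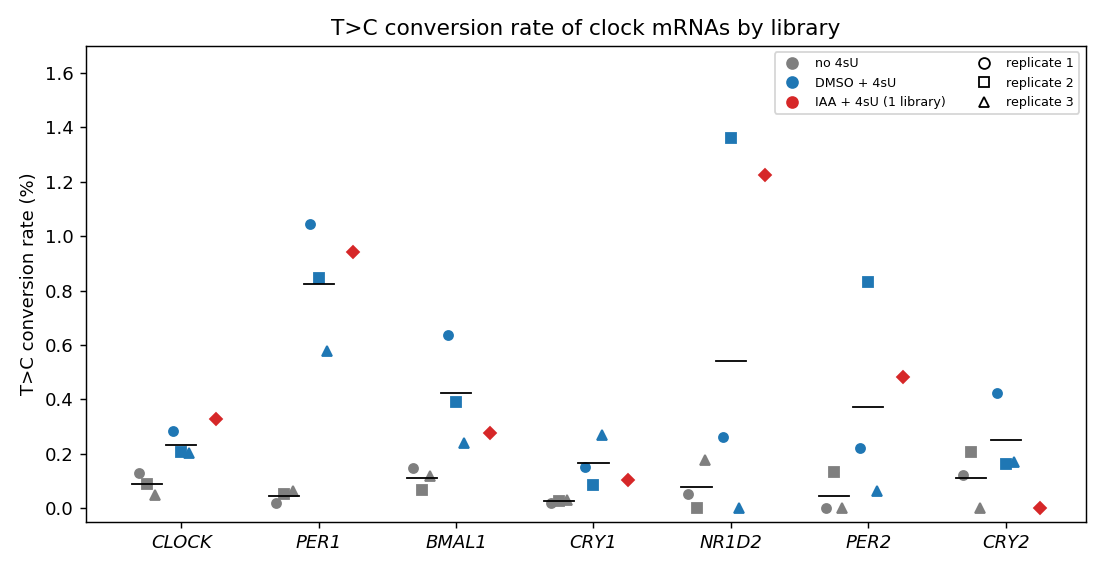
T>C conversion rate in percent of the 7 clock mRNAs with most reads, by library, with a bar at the mean of each group of 3. For PER1 the libraries with DMSO and 4sU lie between 0.578% and 1.05% and those without 4sU at or below 0.0627%, while NR1D2, PER2 and CRY2 scatter between 0% and 1.36%.

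In total mRNA the pulse left the clock genes without a called change. Of 7 members with a mean of at least 10 reads, 0 passed (limma on log2(CPM + 1), adjusted p under 0.05) and 1 had an unadjusted p under 0.05. edgeR and DESeq2 on the recovered reads also called 0. Of 11934 genes, 1.58% changed, 188 lower and 0 higher, and this count was 466, 25 and 31 without replicates 1, 2 and 3. CPM is scaled to library size, so these values show neither the number of cells nor the amount of RNA per cell.

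BMAL1 was the member with the unadjusted p under 0.05. Its mean was 21.4 ± 1.29 CPM without 4sU and 16.6 ± 2.67 CPM with DMSO and 4sU (SD, n = 3 each). The log2 difference was -0.39 (standard error 0.171, limma adjusted p = 0.47). It was the only member of 7 whose groups did not overlap in CPM, as was the case for 19.3% of all genes. CRY2 differed by as much, -0.38, with a larger error (standard error 0.209, limma adjusted p = 0.588), and its groups overlapped. It was -0.61 without replicate 1 and -0.21 without replicate 3. The differences of the other tested members were within their standard errors. They were 0.04 for CLOCK (standard error 0.174), 0.02 for PER1 (0.239), -0.02 for PER2 (0.25), 0.12 for CRY1 (0.184) and -0.05 for NR1D2 (0.217), with limma adjusted p from 0.873 to 0.988. CRY1 was at 0.015 without replicate 1. For PER1, PER2, NR1D2 and CLOCK the sign turned when 1 replicate number was left out. Without replicate 1 it was -0.31 for PER1, 0.04 for NR1D2 and -0.03 for CLOCK. Without replicate 2 it was 0.07 for PER2 and -0.06 for CLOCK.

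**Figure D3:**
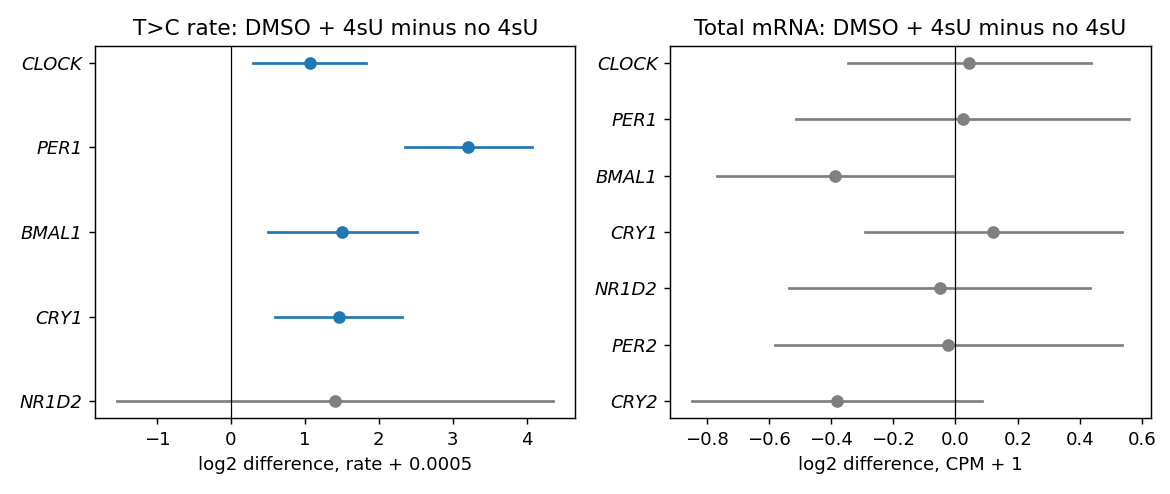
Log2 difference between DMSO with 4sU and no 4sU for the tested clock genes, in conversion rate and in total mRNA, with 95% intervals from limma and the genes that passed in blue. PER1 lies at 3.21 in rate and 0.02 in total mRNA, and the interval of NR1D2 in rate runs from -1.54 to 4.36.

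The comparison of IAA with DMSO, both with 4sU, asks whether clock mRNAs differed in cells given IAA for 1 h before the pulse to degrade JUN. With 1 IAA library there is no replicate on that side. A member was counted as changed where the IAA value was above or below all 3 DMSO libraries and differed from the DMSO mean by 1 or more on the log2 scale. In the rate, with the libraries aligned at their medians, 0 of 5 members met this rule, against 15.4% of 8843 genes. The IAA library lay outside the DMSO range in 3 of 5 members, against 49.7% of all genes. In total mRNA 0 of 7 members met the rule, against 0.227% of 11879 genes, and 4 of 7 lay outside the range, against 41.7%.

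The rate of PER1 was 0.943% in the IAA library, within the 0.578% to 1.05% of the DMSO libraries, and its centred log2 difference was 0.09, or -0.08 without DMSO replicate 3. CLOCK was at 0.329% against 0.204% to 0.285%, a difference of 0.30 and above all 3 DMSO libraries. BMAL1 was at 0.278% and CRY1 at 0.102%. Both lay within the DMSO range as deposited and below it only after centring, with log2 differences of -0.57 and -0.56. BMAL1 was at -0.37 without DMSO replicate 1 and -0.83 without DMSO replicate 3, and CRY1 at -0.19 without DMSO replicate 3. NR1D2 was at 1.22%, with a difference of 2.05 and an SD of 2.42 between the DMSO libraries. Its difference was 3.27 without DMSO replicate 2, where it passed the rule, and 0.85 without DMSO replicate 3.

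In total mRNA, PER1 differed by -0.0013, CRY1 by -0.03 and BMAL1 by 0.15 on the log2 scale, all within the DMSO range after TMM scaling. As deposited, BMAL1 was at 19.44 CPM with IAA, just above the highest DMSO library (19.36 CPM). After scaling, the place of PER1 and BMAL1 within the range rested on DMSO replicate 2. Without it PER1 was at -0.22 and below both other DMSO libraries, and BMAL1 at 0.26 and above both. BMAL1 was at 0.04 without DMSO replicate 1, and CRY1 at -0.09 without DMSO replicate 1 and 0.06 without DMSO replicate 3. PER2 fell outside it at 1.84 CPM (log2 difference -0.43, 95% Poisson interval of the IAA value 1.30 to 2.54 CPM), as did NR1D2 at 2.89 CPM (-0.40, interval 2.20 to 3.74) and CRY2 at 2.49 CPM (0.52, interval 1.85 to 3.29). NR1D2 was at -0.26 without DMSO replicate 2. All 3 of these IAA values lay within the range of the no 4sU control. CLOCK differed by -0.20 and was outside the range only after TMM scaling. The Poisson intervals treat each read as an independent molecule and leave out the spread between libraries. PCR copies are not independent, so the intervals are too narrow where reads include copies. When limma was fitted over all 7 libraries, which assumes that the lone IAA library varies like the other groups, 0 members were called and 0 had an unadjusted p under 0.05 in rate or total mRNA. The same fit called 0.0679% of genes in rate and 0.00842% in total mRNA. edgeR over 7 libraries also called 0 members in total mRNA.

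**Figure D4:**
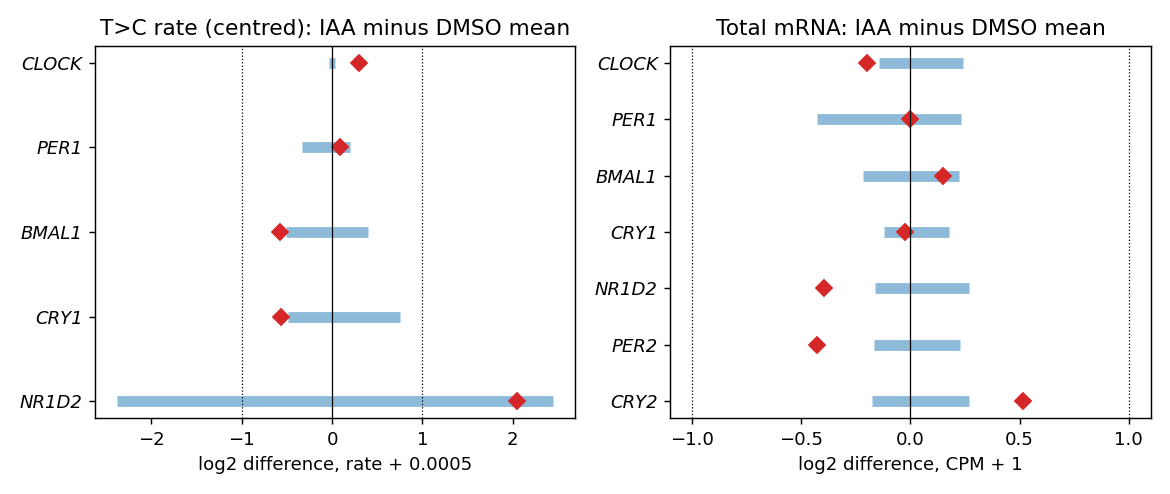
Log2 difference of the IAA library from the mean of the 3 DMSO libraries (red) for the tested clock genes, in centred rate and in total mRNA, with the DMSO range as a blue bar and dotted lines at 1 and -1, the fold of the rule. PER1 lies within the DMSO libraries on both scales, and CRY2 (0.52) and PER2 (-0.43) lie outside them in total mRNA.

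A list of 24 other clock genes, chosen by function, was set beside the core members. Of 10 further transcription factors, 3 could be tested in rate and 2 rose, BHLHE40 and NFIL3, against 53.7% of all genes. The median log2 difference over the 3 was 4.33, against 1.21 over all genes. The remaining factor, BMAL2, a paralog of BMAL1, had a log2 difference of 0.49 (limma adjusted p = 0.193). BHLHE40 (DEC1), a repressor that competes for E-boxes, had rates of 0.0912%, 0.0412% and 0.0451% without 4sU and 3.75%, 3.48% and 3.38% with it. NFIL3 (E4BP4), which opposes DBP at D-boxes, had 0.0783%, 0.0196% and 0.0814%, then 2.60%, 1.95% and 1.74%. In both, the groups were far apart, with log2 differences of 5.07 (standard error 0.264, limma adjusted p = 0.000153) and 4.33 (0.351, adjusted p = 0.000639). Their excess stood at percentiles 99.2 and 98.0 of all genes, above that of PER1.

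In total mRNA 1 of 6 tested factors changed, against 1.58% of all genes. BHLHE40 was at 26.3, 35.1 and 32.8 CPM without 4sU, at 9.63, 7.58 and 13.8 CPM with DMSO and 4sU, and at 9.57 CPM with IAA. It was lower by 1.57 on the log2 scale with DMSO and 4sU than without 4sU (standard error 0.231, limma adjusted p = 0.00927). With 1 replicate number left out it passed only without replicate 1 (adjusted p = 0.00223), and not without replicate 2 (0.167) or 3 (0.0571). NFIL3 was at 7.76, 8.85 and 7.53 CPM, then at 3.85, 4.33 and 6.42 CPM, and at 9.12 CPM with IAA. Its log2 difference between DMSO with 4sU and no 4sU was -0.67 (standard error 0.212, limma adjusted p = 0.241).

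Of 14 kinases, ubiquitin ligases and cofactors of clock proteins, 12 were tested in rate and 10 rose, against 53.7% of all genes, with a median log2 difference of 1.38 over the 12 and 1.21 over all genes. CIPC, an inhibitor of CLOCK, rose by 2.77. The others were FBXW11 (2.17), GSK3B (1.74), CSNK1D (1.65), SIRT1 (1.48), PRKAA1 (1.44), CSNK1E (1.33), NCOR1 (1.18), CSNK1A1 (1.14) and TIMELESS (0.85), with limma adjusted p from 0.00138 to 0.0475 over the 10. HDAC3 (0.71) and BTRC (0.34) did not pass. With 1 replicate number left out, CIPC, CSNK1D and GSK3B passed in all 3 fits, FBXW11, CSNK1A1, NCOR1 and PRKAA1 in 1 fit each, and CSNK1E, SIRT1 and TIMELESS in 0. With the replicate block NCOR1 and TIMELESS no longer passed. In total mRNA 0 of 13 were called by limma. With IAA, 0 genes of either list met the rule in rate or in total mRNA, against 15.4% and 0.227% of all genes.

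**Figure D5:**
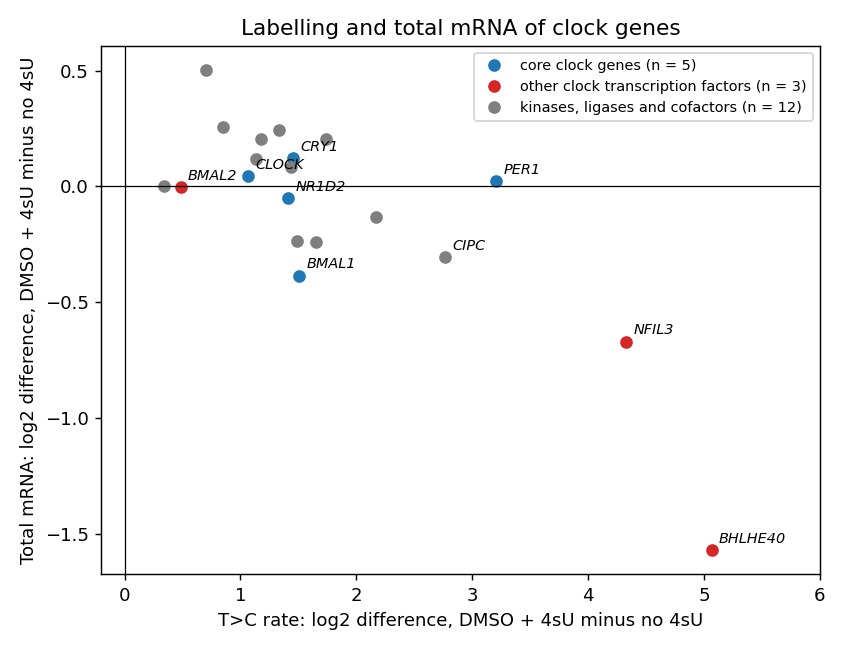
Log2 difference in conversion rate (horizontal) and in total mRNA (vertical), DMSO with 4sU against no 4sU, for the clock genes tested in both. PER1 lies at 3.21 with a total mRNA difference of 0.02, and BHLHE40 lies at 5.07 and -1.57.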

How the data were processed

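MCF10A JUN-AID cells were profiled by SLAM-Seq with QuantSeq 3′ libraries in 9 samples of 3 groups. The authors ran the nf-core SLAM-Seq pipeline, version not given in the sources used here, and the labels name hg19. The deposited table gives the T>C conversion rate as a fraction, without background subtraction, and a signal that the authors call CPM. The deposited interval lengths are in bases. Non-zero CPM were whole multiples of 1 read in 100% of cases (tolerance 0.001 reads), which gave reads and library totals. The 3 IAA columns were identical and used as 1 library. All per-sample columns were used (0 left out). RefSeq identifiers were matched to symbols for 97.7% of rows (GRCh38.p14 table). Gene positions are from GENCODE for GRCh37.

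A gene's repeated rows were used once, its reads summed and its rates averaged over intervals with reads. Averaging in the empty 3-base interval of CRY1 as 0 would give a rate of 0.0835% with DMSO and 4sU. Rates (mean of at least 100 reads) and log2(CPM + 1) with TMM (at least 10 reads) were fitted over all genes with limma 3.58.1 (trend, robust, R 4.3.3). Alternatives were edgeR 4.0.16, DESeq2 1.42.0, other pseudocounts, minima and scaling, and leaving out libraries. The fits were run on simulated data. With 200 of 8859 genes raised 4-fold, the rate fit recovered 84.5% of them, and 4.52% of its calls were false. Far fewer genes were raised there than in the data, so the simulation does not gauge the calls of the members. Other steps used scipy 1.17.1, numpy 2.4.6 and pandas 2.3.3 under Python 3.11.15.

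Same-numbered libraries with and without 4sU deviated together in total mRNA (r = 0.403, 0.335 and 0.433 over 8859 genes) but not in rate (0.0154, -0.00987 and -0.00513). The genes named are the members, each gene of the 2 further lists that passed a test, and JUN. BMAL2, HDAC3, BTRC and NFIL3 in total mRNA were added after their values were seen. The members and lists were chosen with earlier results of these data known. A few planned items are not reported here.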

Additional observations from a re-analysis of the deposited data

How the results depend on the processing

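With 1 replicate number left out, the count of genes with a higher rate was 2279 to 2791 (4758 with all libraries). That of clock members was 1 to 2 (4 with all). These fits had fewer libraries, and whether that alone lowered the counts was not tested. The rate difference of NR1D2 ran from -0.29 to 3.21. With the replicate block, 4028 genes and 4 members rose in rate, and 194 genes and 0 members changed in total mRNA, so it changed no member's call. The count changed in total mRNA (188) was 108 with at least 100 reads, 413 with DESeq2 and 25 to 466 with 1 replicate number left out. In those fits the difference ran from -0.31 to 0.26 for PER1, -0.26 to 0.074 for PER2, -0.15 to 0.044 for NR1D2 and -0.057 to 0.16 for CLOCK. PER1 was at -0.012 without a minimum of reads and at -0.0069 with at least 100, and PER2 at 0.0026 without TMM. For IAA, the count in rate (1359) was 819 with at least 200 reads and 6 with limma over 7 libraries, and members 0 to 1 with 1 DMSO library left out. The count in total mRNA (27) was 123 with a pseudocount of 0.25, 16 with at least 100 reads, 16 with the interval with most reads, 1 with limma and 1 with edgeR over 7 libraries, and 19 to 112 with 1 DMSO library left out. With rates not centred, 845 genes rose and 503 fell by the fold rule (669 and 690 when centred), and without TMM 32 and 3 in total mRNA (19 and 8 with it). Other causes were not tested. No paired analysis was possible for IAA because its columns hold 1 library of unknown number. Depth left PER3, NR1D1 and DBP under the minimum of reads of the main fits.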

Other observations

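The level of PER1 relative to CLOCK was chosen for a closer look after the values were seen. PER1 was at 0.413, 0.198 and 0.409 times the CPM of CLOCK in the 3 libraries with DMSO and 4sU and at 0.372 times in the IAA library. For the product of the CPM and the rate in excess of the unlabelled mean, which follows the amount of newly made mRNA, the ratio of PER1 to CLOCK was 2.10, 1.33 and 1.88, and 1.39 with IAA. PER1 thus held fewer reads than CLOCK and a larger product in each of the 4 labelled libraries. No error was computed for these ratios, and all 4 libraries share the same unlabelled mean. The excess of CLOCK was small (0.144 percentage points), and its rate call did not hold when 1 replicate number was left out.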
